A study of Mus musculus with 24 samples.

Results

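Oxidative phosphorylation subunit genes were examined in mouse RNA-seq libraries of 2 brain regions, the ventral tegmental area (VTA) and the nucleus accumbens. The genes were found by symbol: subunits of respiratory complexes I to IV (Nduf, Sdh, Uqcr, Cyc1, Cox4 to Cox8), cytochrome c (Cycs), subunits of ATP synthase (Atp5), and all genes of the mitochondrial genome. In all, 124 of 30270 genes matched: 85 nuclear genes that encode subunits, 13 mitochondrially encoded mRNAs, 2 mitochondrial rRNAs, 11 mitochondrial tRNAs, 11 noncoding or pseudogene entries with such a symbol, and 2 others. The 2 others are Atp5s and Yjefn3, a row that the tables call Ndufa13. The tables name mitochondrial genes without the prefix mt-, so 38 genes were found by gene identifier through the GENCODE annotation. Between 104 and 109 of the genes reached a mean of 10 in a given comparison and were tested. In the comparison of the regions, the genes on either side of that limit were mt-Ta, a tRNA gene, with a mean of 10.8, and Ndufb4c, with a mean of 6.94.

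The study asked how loss of the vitamin D receptor gene (Vdr) changes the response to morphine in these regions of the reward pathway. The mice were wild-type or Vdr-/-, on a C57BL/6 background, and were injected intraperitoneally with PBS or with 5 mg/kg morphine sulfate. Vdr-/- mice were kept on a diet with added calcium and lactose. Tissue was taken 90 min after injection according to the text on sequencing, whereas the tissue methods give 60 min for saline controls, and which of these applies to the PBS libraries is not stated. Each of the 8 groups of genotype, injection and region held 3 libraries, made from bilateral micropunches. The labels number the libraries by mouse, and each of 12 numbers occurs once in each region; no source used here states that both libraries of a number came from 1 animal. Sex and age are not given in the labels used here.

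Oxidative phosphorylation transfers electrons from NADH and succinate to oxygen through complexes I to IV of the inner mitochondrial membrane, and ATP synthase, also called complex V, uses the resulting proton gradient to make ATP. Complex II is encoded wholly in the nucleus, whereas the other complexes combine nuclear subunits with subunits encoded by mitochondrial DNA. Neurons depend heavily on this pathway to pay for ion pumping and synaptic transmission. Mitochondrial DNA is transcribed as long precursors from both strands, which are cut into mRNAs, rRNAs and tRNAs.

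The libraries held 9328726 to 30184426 reads on genes. Vdr itself had between 0 and 17 reads per library with overlap of the genotypes, so it did not mark genotype at this depth. The accumbens library of wild-type PBS mouse 2 stood apart: across genes, the rank correlation of its expression ratio with exon length was -0.385, against -0.211 to 0.217 in the other libraries, and its astrocyte markers summed to 2903 CPM (reads per 1000000 reads on genes), the lowest of all 24 libraries. Dopamine neuron markers varied widely among VTA libraries, from 125 to 2431 CPM. Mice given morphine are numbered with a decimal point and mice given PBS with whole numbers, and the labels name no batch, so a difference in handling between the injections cannot be told apart from morphine. P-values measure the spread between libraries of separate mice. The VTA tables of morphine and PBS hold no column for wild-type PBS mouse 3 and Vdr-/- PBS mouse 8, so VTA fits of morphine used 2 PBS libraries of each genotype, while CPM are printed for all 3. In bulk tissue fewer cells of a type and less RNA per cell cannot be told apart.

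Several mitochondrial genes have nearly identical copies in the nuclear genome, which bears on the values of these genes. Words of 101 bases, the read length, were compared between the mitochondrial mRNAs and annotated nuclear genes of GRCm38. Nuclear genes held 99.5% of the words of mt-Co2 and mt-Atp6, 99.9% of mt-Co3, 98.5% of mt-Nd4l and 97.6% of mt-Nd3. The share was 60.7% for mt-Nd4, 30.7% for mt-Co1, 3.09% for mt-Nd2 and 0% for mt-Nd1, mt-Nd5, mt-Nd6, mt-Cytb and mt-Atp8. For each gene the copy that shares most words was taken. Apart from the copy of mt-Nd2, these are 7 adjacent pseudogenes at chr1:24611535-24616197. Nuclear genes that share fewer words were not followed. mt-Atp8 lies between mt-Co2 and mt-Atp6 in the mitochondrial genome, and the stretch between their copies, chr1:24614652-24614884, carries no annotated gene. mt-Atp8 was placed by this position with the 5 genes above 90%, although no annotated copy holds its words, and these 6 are called the set with nuclear copies. The first 75 bases of mt-Co2 (chrM:7013-7696) and of mt-Co3 (chrM:8607-9390), which encode subunits of complex IV, are shown with their copies, Gm28661 (chr1:24614885-24615565) and Gm28437 (chr1:24613189-24613971), because a read from either place has the same letters. The stretch of mt-Cytb (chrM:14145-15288), a subunit of complex III, from base 226 to base 300 of the gene is shown with the pseudogene Gm11410, from which it differs at 1 base of 75, in capitals.
mt-Co2: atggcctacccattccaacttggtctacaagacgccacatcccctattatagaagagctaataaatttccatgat
Gm28661: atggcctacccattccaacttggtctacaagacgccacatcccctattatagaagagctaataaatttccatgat
mt-Co3: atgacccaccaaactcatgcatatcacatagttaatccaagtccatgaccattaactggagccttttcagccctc
Gm28437: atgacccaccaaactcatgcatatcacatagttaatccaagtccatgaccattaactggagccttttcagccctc
mt-Cytb: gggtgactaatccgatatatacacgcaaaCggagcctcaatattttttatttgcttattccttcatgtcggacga
Gm11410: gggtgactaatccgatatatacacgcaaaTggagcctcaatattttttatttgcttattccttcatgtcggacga

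Per length of exon, the mitochondrial mRNAs without full nuclear copies stood above every nuclear subunit gene. Expressed as CPM per kb of exon, mt-Co1, the catalytic subunit of complex IV, was at 10430 ± 1342 (SD, n = 12) in the nucleus accumbens and 10609 ± 1665 (SD, n = 12) in the VTA. The median over the 7 mRNAs without full copies was 4829 in the nucleus accumbens, from 449 for mt-Nd6, the only one encoded on the other strand, to mt-Co1. The 6 mRNAs with copies had a median of 7.81 and a range of 3.85 to 15.5, although mt-Co2, mt-Co3 and mt-Atp6 lie on the same precursor as mt-Co1. The 6 are therefore given apart from the other 7 in all that follows. The study's methods name the GeneCounts option of STAR for counting. Beyond that option they do not state how reads that match several places were counted.

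The 85 nuclear subunit genes had a median of 29.3 CPM per kb of exon in the nucleus accumbens, and a median of 32.9 among VTA libraries. In the nucleus accumbens 69 of them were above 10 and 6 were above 100. The 6 were Atp5a1 at 208 and Atp5b, both catalytic core subunits of ATP synthase, and the complex IV subunits Cox8a at 169, Cox6a1 at 154, Cox4i1 at 119 and Cox6b1 at 102. The 4 below 1 were Cox8b and Cox7a1, isoforms typical of muscle, and Cox6b2 and Cox7b2, isoforms typical of testis. Cox6a1 stood at 154 against 2.35 for its muscle isoform Cox6a2, and Cox4i1 at 119 against 1.09 for Cox4i2. Among the 3 genes for subunit c of ATP synthase, which encode the same mature protein, Atp5g3 was at 38.4, Atp5g2 at 14.03 and Atp5g1 at 13.5. The last 2 differed by less than the SD of Atp5g2 between libraries, 1.82. The length used merges all annotated exons of a gene, 4912 bases for Atp5g1 and 1675 for Atp5g2, so values per kb depend on the annotation. Without division by length, wild-type PBS accumbens had 79.5 CPM for Atp5g3, 25.4 for Atp5g2 and 66.0 for Atp5g1. Mitochondrial genes took 4.78% to 7.03% of all reads per library and nuclear subunit genes 0.541% to 0.707%.

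**Figure D1:**
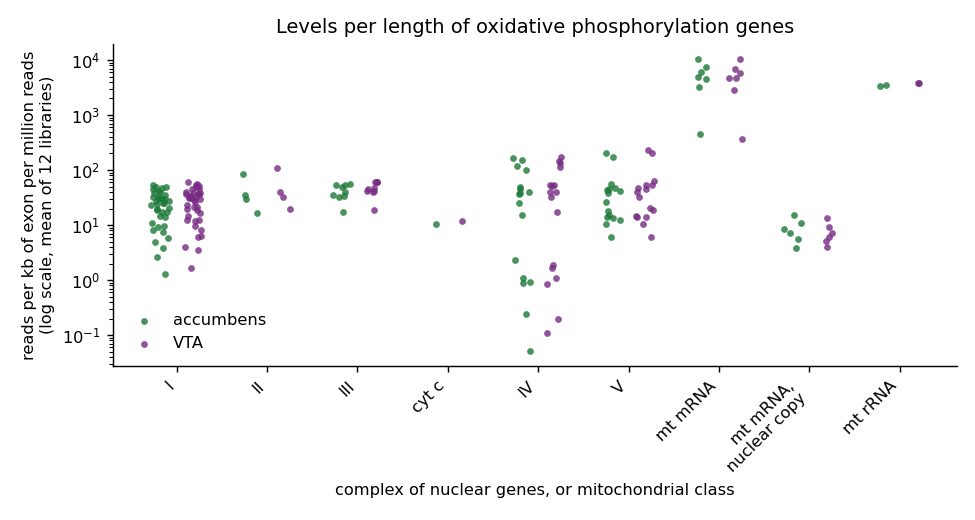
CPM per kb of exon on a log scale, 1 point per gene and region (mean of 12 libraries; accumbens green, VTA purple), by respiratory complex for nuclear genes and by class for mitochondrial genes. The 7 mitochondrial mRNAs without full nuclear copies, from 449 to 10430 in the accumbens, lie far above the 6 with copies, from 3.85 to 15.5, which sit among the nuclear genes.

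Morphine was accompanied by opposite differences in the 2 sets of mitochondrial mRNAs. In wild-type accumbens 5 of 108 tested members were called higher and none lower, against 0.413% higher, 0.4% lower and 0.813% in either direction of all genes tested (limma, adjusted p under 0.05). The 5 were mt-Co2, mt-Atp6, mt-Co3, mt-Atp8 and mt-Nd4l, and all of them belong to the set with nuclear copies. That set was formed after the data were seen, and mt-Atp8 was placed in it by position alone. mt-Co2, mt-Atp6, mt-Co3 and mt-Atp8 had log2 fold changes of 2.62, 2.54, 2.21 and 2.93. The same 5 genes were called higher in each of the other 3 comparisons of morphine with PBS. mt-Nd4l had mean normalised counts of 4.41 to 7.49 in PBS and 36.7 to 53.7 in morphine groups, so it reached the minimum mean of 10 only through the group where it is high and had to differ. The same holds for mt-Atp8 in Vdr-/- VTA (6.67 and 102), which leaves 4 calls in 3 of the comparisons and 3 in that one. The remaining one of the set, mt-Nd3, was called in none of the 4.

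For mt-Co2 the 6 PBS libraries of the nucleus accumbens had 1.22 CPM at the lowest, 1.92 at the median and 2.17 at the highest. The 6 morphine libraries had 5.03, 13.1 and 22.8. In the VTA the PBS libraries had 1.05, 1.16 and 1.55 and the morphine libraries 4.10, 12.6 and 17.1. Every morphine library was above every PBS library, and within each genotype and region the morphine libraries were also the more scattered, with mouse 2.0 lowest in both regions. The log2 fold change was 2.62 ± 0.36 (SE; adjusted p = 0.0347, limma) in wild-type accumbens, 2.53 ± 0.36 (adjusted p = 0.00101) in Vdr-/- accumbens, 3.00 ± 0.27 (adjusted p = 0.00763) in wild-type VTA and 3.12 ± 0.56 (adjusted p = 0.0212) in Vdr-/- VTA.

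The 7 nuclear copies were higher with morphine as well. Summed over the copies, PBS libraries had 12.01 to 16.7 CPM and morphine libraries 57.3 to 302, and summed over the 6 mitochondrial mRNAs PBS libraries had 5.03 to 8.60 CPM and morphine libraries 15.2 to 72.4. Neither range overlapped between injections. Gm10222, the copy of mt-Nd4l, and Gm28438 had PBS means under 10 in all 4 comparisons and were tested only because of their morphine values. The other 5 copies were called higher with morphine in all 4, with log2 fold changes from 2.71 for Gm28437 in Vdr-/- accumbens to 4.09 for Gm10925 in wild-type accumbens. The 5 include Gm28439 and Gm29216, which match parts of mt-Nd4 and mt-Co1, whose own log2 fold changes were all below 0. A read that lies wholly within shared letters is the same for the mitochondrial gene and its copy. From which of these places the counted reads came was not tested.

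**Figure D2:**
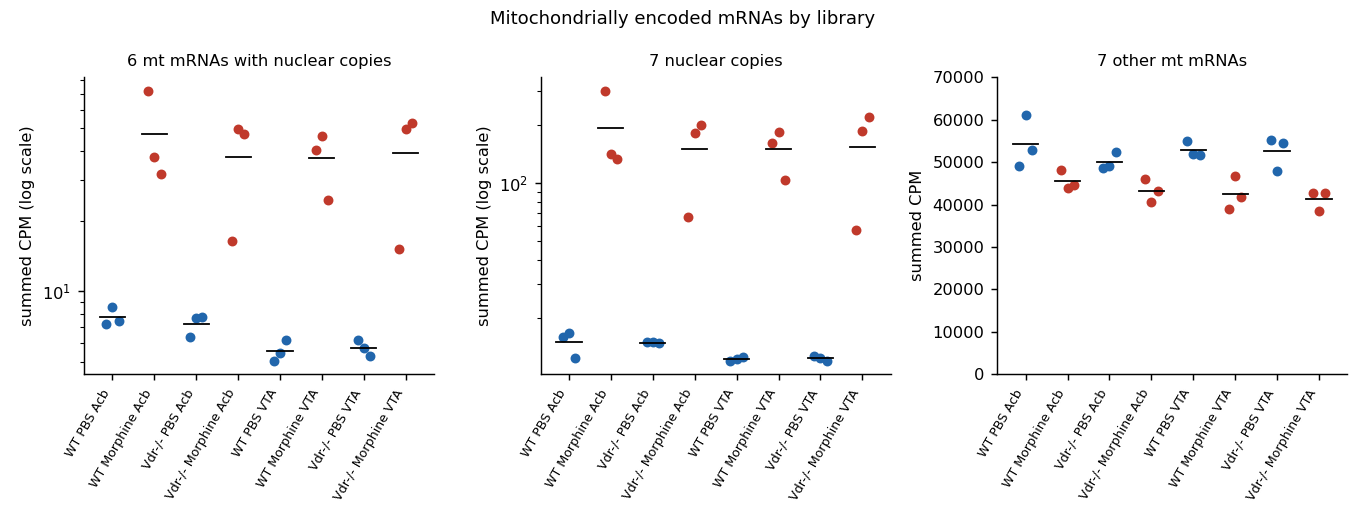
Summed CPM per library (1 point each, bars at the mean of 3) for the 6 mitochondrial mRNAs with nuclear copies and the 7 copies, both on a log scale, and for the 7 other mitochondrial mRNAs on a linear scale; PBS is blue and morphine red. PBS libraries lie at 5.03 to 8.60, 12.01 to 16.7 and 47967 to 61051 in the 3 panels, and morphine libraries at 15.2 to 72.4, 57.3 to 302 and 38590 to 48034.

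The 7 mitochondrial mRNAs without full copies, which carry most mitochondrial reads, summed to less with morphine within each genotype and region. In Vdr-/- VTA they summed to 47967 to 55177 CPM in PBS and 38590 to 42792 CPM in morphine libraries. The corresponding ranges were 51766 to 54927 and 38973 to 46786 in wild-type VTA, 48673 to 52292 and 40574 to 46044 in Vdr-/- accumbens, and 49020.4 to 61051 and 43822 to 48034 in wild-type accumbens. The injections did not overlap in any of these 4 pairs of groups. By limma, single genes of this set passed the test in Vdr-/- mice and not in wild-type mice. In the nucleus accumbens these were the complex I subunits mt-Nd6 (log2 fold change -0.37), mt-Nd1 (-0.31) and mt-Nd5 (-0.29), and in the VTA mt-Nd1 (-0.45) and mt-Nd5 (-0.43), the last of which did not pass with all 3 PBS mice. All 7 had a log2 fold change below 0 in all 4 comparisons, for example mt-Co1 with -0.31 and -0.25 in wild-type and Vdr-/- accumbens and -0.43 and -0.49 in wild-type and Vdr-/- VTA. A difference between the genotypes was not called for any of them, as given below.

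For mt-Nd1 in Vdr-/- VTA, PBS mice 7, 8 and 9 had 6061, 5465 and 6266 CPM and morphine mice 2.0, 2.1 and 2.2 had 4579, 4291 and 4663 CPM. The log2 fold change was -0.45 ± 0.08 (SE; adjusted p = 0.0229, limma). In Vdr-/- accumbens the PBS libraries had 5727, 5733 and 6182 CPM and the morphine libraries 5195, 4602 and 4850.3 CPM, with a log2 fold change of -0.31 ± 0.08 (adjusted p = 0.0212). The injections did not overlap in either region. In wild-type mice the log2 fold changes of mt-Nd1 were -0.25 (adjusted p = 0.425) in the nucleus accumbens and -0.39 (adjusted p = 0.196) in the VTA.

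The mitochondrial rRNAs, which are cut from the same strand as mt-Nd1, did not share this direction in Vdr-/- mice. mt-Rnr1, the small rRNA, had 3603, 3040.0 and 2787 CPM in PBS and 4037, 4727 and 4893 CPM in morphine libraries of Vdr-/- VTA. The morphine libraries were all higher, and the difference, fitted without mouse 8, did not pass the test (log2 fold change 0.51, adjusted p = 0.0541, limma). mt-Rnr2, the large rRNA, had a log2 fold change of 0.45 (adjusted p = 0.0672) there, and in wild-type VTA the values were -0.19 and -0.20. The tRNA gene mt-Tw was called higher in Vdr-/- accumbens (0.75). mt-Tm and mt-Ti were called higher in Vdr-/- VTA but had PBS means of 3.09 and 3.70, and so were tested only because of their morphine values. mt-Tm had 0.166 to 0.322 CPM in PBS and 0.945 to 1.70 CPM in morphine libraries there.

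Nuclear subunit genes differed by less than the mitochondrial mRNAs with copies. In Vdr-/- accumbens 4 of 82 were called higher and 11 lower, 18.3% in all, within 10 higher and 14 lower of 105 members, where 9.94% of all genes were called higher and 9.13% lower, 19.1% in all, so the share of nuclear genes lay near that of all genes. In Vdr-/- VTA 3 of 83 were called higher and 13 lower, 19.3% in all, within 10 higher and 15 lower of 108 members, against 4.74%, 5.28% and 10% in either direction of all genes. In wild-type VTA none of 83 was called (5 of 109 members higher and none lower, against 1.77% higher, 1.88% lower and 3.65% in either direction of all genes), although 73 of 83 had a log2 fold change below 0 and 31, or 37.3%, had an unadjusted p under 0.05, against 24.2% of all genes. There edgeR called no nuclear gene and DESeq2 called 3 lower. This fit used 2 PBS libraries, and with all 3 PBS mice more members were called, as given in the last section. In wild-type accumbens none of 82 nuclear genes was called by limma, edgeR or DESeq2, and 6, or 7.32%, had an unadjusted p under 0.05 by limma, against 16.6% of all genes. The median log2 fold change of the nuclear genes was -0.01 and -0.04 in wild-type and Vdr-/- accumbens and -0.18 and -0.13 in wild-type and Vdr-/- VTA, whereas the median over all genes lay between -0.01 and 0.01.

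**Figure D3:**
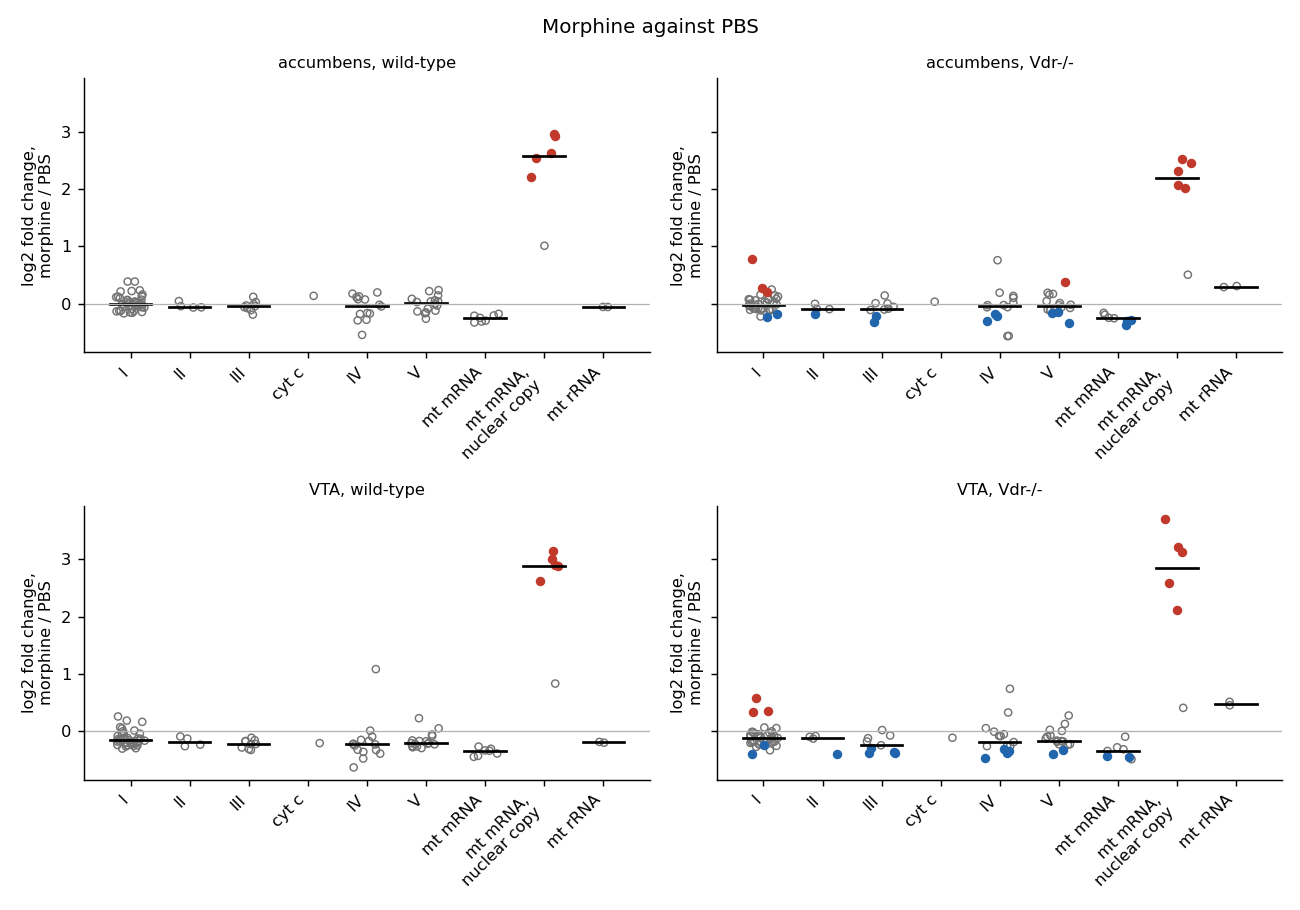
Log2 fold change of morphine against PBS for each tested gene (1 point per gene), by respiratory complex for nuclear genes and by class for mitochondrial genes, in the 4 combinations of region and genotype; red and blue points passed the test as higher and lower, open points did not, and bars mark medians. In each panel 5 of the 6 mitochondrial mRNAs with nuclear copies are red, and nuclear genes are coloured only in Vdr-/- mice.

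By complex, the calls in Vdr-/- mice were spread over the pathway. Complex I, which accepts electrons from NADH, had 3 nuclear genes higher and 2 lower of 38 in each region (counted by symbol, with Ndufa4, a complex IV subunit, and its paralog Ndufa4l2; 3 and 2 of 36 without them), the lower ones being Ndufa10 (-0.24) and Ndufb3 (-0.19) in the nucleus accumbens and Ndufa10 (-0.39) and Ndufs3 (-0.24) in the VTA. Of the 4 subunits of complex II, which oxidises succinate, Sdhc was called lower in both regions (-0.19 and -0.40) and the other 3 were not called. Complex III, which passes electrons to cytochrome c, had 2 lower of 9 in the nucleus accumbens (Uqcrfs1 -0.32, Uqcrc1 -0.21) and 4 lower of 9 in the VTA (Uqcrc1 -0.38, Uqcrfs1 -0.38, Uqcrq -0.36, Cyc1 -0.30). Cycs itself was not called (0.03 and -0.11). Complex IV, which reduces oxygen, had 3 lower of 14 (Cox6a1 -0.30, Cox8a -0.21, Cox4i1 -0.18) and 4 lower of 15 (Cox6a1 -0.46, Cox4i1 -0.38, Cox8a -0.35, Cox5a -0.32). ATP synthase had Atp5k higher (0.38) and 3 lower of 16 in the nucleus accumbens (Atp5g2 -0.33, Atp5b -0.16, Atp5a1 -0.15) and 2 lower of 16 in the VTA (Atp5g2 -0.39, Atp5d -0.34). Of the nuclear genes called lower, 8 were shared, which is 72.7% of the 11 in the nucleus accumbens and 61.5% of the 13 in the VTA: Atp5g2, Cox4i1, Cox6a1, Cox8a, Ndufa10, Sdhc, Uqcrc1 and Uqcrfs1. Over all genes 225 called lower were shared, 15.6% of 1445 and 26.0% of 864.

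Sdhc, a membrane anchor of complex II, had 77.2, 63.1 and 73.8 CPM in PBS and 56.8, 57.7 and 57.2 CPM in morphine libraries of Vdr-/- VTA (log2 fold change -0.40 ± 0.05, adjusted p = 0.00895, limma, fitted without PBS mouse 8, the second value). Atp5g2 had 28.3, 27.6 and 26.8 CPM in PBS and 21.4, 19.9 and 21.8 CPM in morphine libraries there (-0.39 ± 0.08, adjusted p = 0.0281). For both genes the morphine libraries lay below all PBS libraries and within a narrow range. With all 3 PBS mice the log2 fold changes were -0.31 (adjusted p = 0.0478, limma) for Sdhc and -0.39 (adjusted p = 0.0203) for Atp5g2, and Cox5a (-0.26, adjusted p = 0.0753) and mt-Nd5 (-0.35, adjusted p = 0.0799) did not pass.

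Cox6a1, a small subunit of complex IV and one of the most abundant nuclear members, had 121, 117 and 114 CPM in PBS and 102, 91.8 and 99.5 CPM in morphine libraries of Vdr-/- accumbens. In Vdr-/- VTA it had 129.98, 128 and 121 CPM in PBS and 91.6, 83.7 and 99.3 CPM in morphine libraries. All morphine libraries were below all PBS libraries in both regions, with log2 fold changes of -0.30 ± 0.05 (SE; adjusted p = 0.00301, limma) and -0.46 ± 0.08 (adjusted p = 0.0208). Wild-type mice showed the same order: 105, 135 and 118 CPM in PBS against 98.9, 97.8 and 99.4 CPM in the nucleus accumbens, and 121, 109 and 116 CPM against 77.5, 98.7 and 78.6 CPM in the VTA. These did not pass the test, with log2 fold changes of -0.29 (adjusted p = 0.181) and -0.48 (adjusted p = 0.0899).

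Uqcrc1, a core subunit of complex III, had 192, 188 and 186 CPM in PBS and 149.8, 137 and 151 CPM in morphine libraries of Vdr-/- VTA. In Vdr-/- accumbens it had 152, 145 and 146 CPM in PBS and 126, 129 and 138 CPM in morphine libraries. The injections did not overlap in either region, and the log2 fold changes were -0.38 ± 0.06 (SE; adjusted p = 0.0166, limma) and -0.21 ± 0.05 (adjusted p = 0.0147). In wild-type VTA PBS libraries had 195, 191 and 185 CPM and morphine libraries 151, 172 and 155 CPM, also without overlap, with a log2 fold change of -0.31 (adjusted p = 0.0890).

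Ndufb2, an accessory subunit of complex I, was the only nuclear gene called higher in both regions of Vdr-/- mice. This is 25% of the 4 genes in the nucleus accumbens and 33.3% of the 3 in the VTA. Over all genes 350 called higher were shared, 22.3% of 1573 and 45.2% of 775. In Vdr-/- accumbens it had 9.58, 10.9 and 9.89 CPM in PBS and 17.9, 18.9 and 17.2 CPM in morphine libraries, a log2 fold change of 0.79 ± 0.09 (SE; adjusted p = 0.000316, limma). In Vdr-/- VTA it had 18.4, 18.3 and 16.9 CPM in PBS and 27.3, 25.3 and 26.5 CPM in morphine libraries, a log2 fold change of 0.57 ± 0.08 (adjusted p = 0.0111). Both regions thus separated the injections by a wide gap. In wild-type mice the values were 13.0, 13.5 and 12.04 CPM against 20.2, 15.8 and 15.5 CPM in the nucleus accumbens and 22.6, 21.5 and 20.6 CPM against 27.2, 24.1 and 24.7 CPM in the VTA, again without overlap. Their log2 fold changes were 0.38 (adjusted p = 0.189) and 0.16 (adjusted p = 0.262). The other nuclear genes called higher were Atp5k, Ndufab1 and Ndufc2 in the nucleus accumbens and Ndufa3 and Ndufa1 in the VTA, with log2 fold changes between 0.20 and 0.38. Ndufb2 lies on the plus strand at chr6:39592574-39603382 of GRCm38, with merged exons of 5628 bases.

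Promoters of nuclear subunit genes were searched for motifs of factors known to bind respiratory genes. RefSeq promoters on GRCm38.p6, from 250 bases before to 50 bases after the start, were matched for 68 of the 85 nuclear genes. They were compared with the promoters of all 27025 genes listed, not only those tested here, on both strands. A gene was counted if any of its listed promoters held the letters. The NRF1 letters CGCATGCG were in 14.7% of matched members and 2.07% of all genes listed. The GABPA letters CCGGAAG were in 23.5% and 9.93%, and the YY1 letters AAGATGGCG in 10.3% and 1.64%. Any of the 3 was in 39.7% of matched members and 12.8% of all genes listed. The GABPA and YY1 letters can overlap at AAG. Of the 9 nuclear genes that moved with morphine in both regions of Vdr-/- mice, 8 lower and 1 higher, 7 had a matched promoter. The NRF1 letters were in Atp5g2, Cox6a1 and Uqcrc1 and the GABPA letters in Cox6a1 and Cox8a, while Ndufa10, Uqcrfs1 and Ndufb2 held none of the 3 motifs in this window. Cox4i1 and Sdhc were not matched. As examples of lower genes, Cox6a1 (chr5:115348909-115349208, minus strand) and Uqcrc1 (chr9:108936398-108936697, plus strand) are shown with motif letters and Uqcrfs1 (chr13:30545267-30545566, minus strand) without any, beside the higher gene Ndufb2 (chr6:39592315-39592614, plus strand). Motif letters, on either strand, are in capitals.
Cox6a1: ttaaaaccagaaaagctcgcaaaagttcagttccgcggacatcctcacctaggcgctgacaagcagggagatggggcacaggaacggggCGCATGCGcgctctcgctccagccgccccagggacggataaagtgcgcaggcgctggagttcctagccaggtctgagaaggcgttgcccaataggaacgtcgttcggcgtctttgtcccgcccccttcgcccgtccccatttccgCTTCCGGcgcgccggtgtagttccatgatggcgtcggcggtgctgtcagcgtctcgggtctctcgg
Uqcrc1: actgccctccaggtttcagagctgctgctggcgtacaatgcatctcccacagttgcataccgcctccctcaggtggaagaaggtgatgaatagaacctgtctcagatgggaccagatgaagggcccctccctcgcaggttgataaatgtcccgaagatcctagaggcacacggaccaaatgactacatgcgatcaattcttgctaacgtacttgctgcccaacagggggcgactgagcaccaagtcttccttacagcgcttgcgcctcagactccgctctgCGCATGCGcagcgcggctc
Uqcrfs1: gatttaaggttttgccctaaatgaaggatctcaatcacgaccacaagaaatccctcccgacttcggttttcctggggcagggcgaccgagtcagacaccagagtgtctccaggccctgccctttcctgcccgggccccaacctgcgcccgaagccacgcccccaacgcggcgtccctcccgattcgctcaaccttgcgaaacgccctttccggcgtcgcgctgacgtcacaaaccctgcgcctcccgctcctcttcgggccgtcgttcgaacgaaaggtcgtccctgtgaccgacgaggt
Ndufb2: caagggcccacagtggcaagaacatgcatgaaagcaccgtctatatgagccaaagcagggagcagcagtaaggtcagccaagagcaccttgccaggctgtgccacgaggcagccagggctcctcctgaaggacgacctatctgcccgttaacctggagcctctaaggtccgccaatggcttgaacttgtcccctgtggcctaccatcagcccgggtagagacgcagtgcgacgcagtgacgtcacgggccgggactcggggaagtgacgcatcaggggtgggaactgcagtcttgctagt

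Several sets of cell type markers moved with these comparisons too. In the VTA neuron markers summed to 4383 to 4818 CPM in PBS and 3407 to 4677 CPM in morphine libraries. Astrocyte markers summed to 3277 to 4323 and 3440 to 3820 CPM there, and endothelial markers to 224 to 269 and 177 to 242 CPM. In the nucleus accumbens the neuron sums were 3841 to 5066 and 4066 to 4480.5 CPM. There astrocyte markers summed to 2903 to 4821 and 4427 to 4955 CPM, and endothelial markers to 148 to 193 and 158 to 201 CPM. Oligodendrocyte markers summed to 12313 to 13477 CPM in PBS and 6361 to 10497 CPM in morphine libraries of the VTA, and all 7 of 7 were called lower in Vdr-/- VTA. Medium spiny neuron markers summed to 2844 to 3955 CPM in PBS and 1879 to 2707 CPM in morphine libraries of the nucleus accumbens, where all 9 of 9 were called lower in Vdr-/- mice. Dopamine neuron markers summed to 1910.2 to 2431 CPM in PBS and 125 to 409 CPM in morphine libraries of wild-type VTA, where 6 of 8 were called lower, and to 363 to 1818 and 453 to 936 CPM in Vdr-/- VTA, where 1 of 8 was called higher. Nuclear subunit genes took 0.666% to 0.707% of reads in PBS and 0.596% to 0.656% in morphine libraries of the VTA. Microglia markers summed to 242 to 287 CPM in PBS and 199 to 222 CPM in morphine libraries of the nucleus accumbens, and to 204 to 292 and 143 to 181 CPM in the VTA, with 1 and 4 of 7 called lower in wild-type and Vdr-/- accumbens and 5 and 2 of 7 in wild-type and Vdr-/- VTA. Choroid plexus markers summed to 8.45 to 12.2 CPM in PBS and 6.27 to 129 CPM in morphine libraries of the VTA, the highest in Vdr-/- mouse 2.1. In the nucleus accumbens they summed to 20.2 to 30.3 CPM in PBS and 29.4 to 37.1 CPM in morphine libraries. Red blood cell markers summed to 53.2 to 635 CPM in PBS and 40.8 to 224 CPM in morphine libraries of both regions, with 1 of 5 lower in Vdr-/- accumbens and 2 of 5 lower in wild-type VTA. The part of cell composition in the results on morphine was not tested. The rank correlation with exon length lay between -0.385 and 0.0814 in PBS and between 0.0220 and 0.217 in morphine libraries. Nuclear subunit genes had a median exon length of 1569 bases, against 4272 bases over all genes tested in PBS accumbens. With the trend on exon length removed, 10 members were called higher and 11 lower in Vdr-/- VTA, 10 and 14 in Vdr-/- accumbens, 5 and 4 in wild-type VTA, and 5 and 0 in wild-type accumbens, where 7.59%, 19.6%, 3.79% and 1.44% of all genes were called.

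Single libraries decided several counts, of members and of all genes alike. With 3 mice against 2 in Vdr-/- VTA, no gene of any kind was called without PBS mouse 7, whereas 36 members (12 higher and 24 lower) and 13.8% of all genes were called without morphine mouse 2.0. There 11 members and 653 genes in all were called without morphine mouse 2.1, 4 and 2.01% without mouse 2.2, and 4 and 2.35% without PBS mouse 9. In wild-type VTA no gene was called without PBS mouse 1 or 2, 3 members and 0.395% of all genes without morphine mouse 1.2, and 34 (6 higher and 28 lower) and 17.4% without morphine mouse 1.1. In wild-type accumbens no gene was called without morphine mouse 1.1 or 1.2. No member was called there without PBS mouse 1 or 3 (4 and 9 genes in all), 3 were called without morphine mouse 1.0 (21 genes), and without PBS mouse 2, the library that stood apart, 5 members and 627 genes were called, against 5 and 128 with it. In Vdr-/- accumbens 12 members and 10.3% of all genes were called without morphine mouse 2.1, and 15 and 12.4% without mouse 2.2. Scaling by TMM, another normalization, gave 9 members higher and 26 lower in Vdr-/- VTA, with 2 nuclear genes higher and 20 lower, and 627 higher of 1708 genes called in all against 775 of 1639.

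For these genes no difference between genotypes passed the test. No member was called between Vdr-/- and wild-type mice in any of the 4 comparisons, where 0.069% of all genes were called in the nucleus accumbens after PBS (0.0439% higher and 0.0251% lower), 0.39% in the VTA after PBS (0.256% and 0.134%), 0.192% in the nucleus accumbens after morphine (0.0703% and 0.121%) and 0.0624% in the VTA after morphine (0.0374% and 0.025%). At an unadjusted p under 0.05 there were 3 of 105, 10 of 104, 8 of 106 and 4 of 107 members in the same order, which is 2.86%, 9.62%, 7.55% and 3.74% against 8.94%, 14.2%, 7.73% and 8.77% of all genes; in each the members' share lay below that of all genes. edgeR also called none in any of these comparisons, and DESeq2 called 1, mt-Rnr2, in the nucleus accumbens after morphine.

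The members with the smallest unadjusted p were Ndufb2 and Yjefn3 in the nucleus accumbens after PBS (log2 fold changes -0.32 and -0.54, both adjusted p = 0.461), mt-Tp and Ndufb2 in the VTA after PBS (-0.54 and -0.29; adjusted p = 0.170 and 0.175), mt-Rnr2 and mt-Nd6 in the nucleus accumbens after morphine (0.38 and -0.19; adjusted p = 0.402 and 0.423), and Atp5j2, a subunit of ATP synthase, and mt-Rnr1 in the VTA after morphine (0.18 and 0.42; adjusted p = 0.487 and 0.516). For Ndufb2 the PBS libraries of Vdr-/- mice, 9.58 to 10.9 CPM, all lay below those of wild-type mice, 12.04 to 13.5 CPM, in the nucleus accumbens. The same held in the VTA, with 16.9 to 18.4 CPM against 20.6 to 22.6 CPM. After morphine the genotypes overlapped in both regions.

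**Figure D4:**
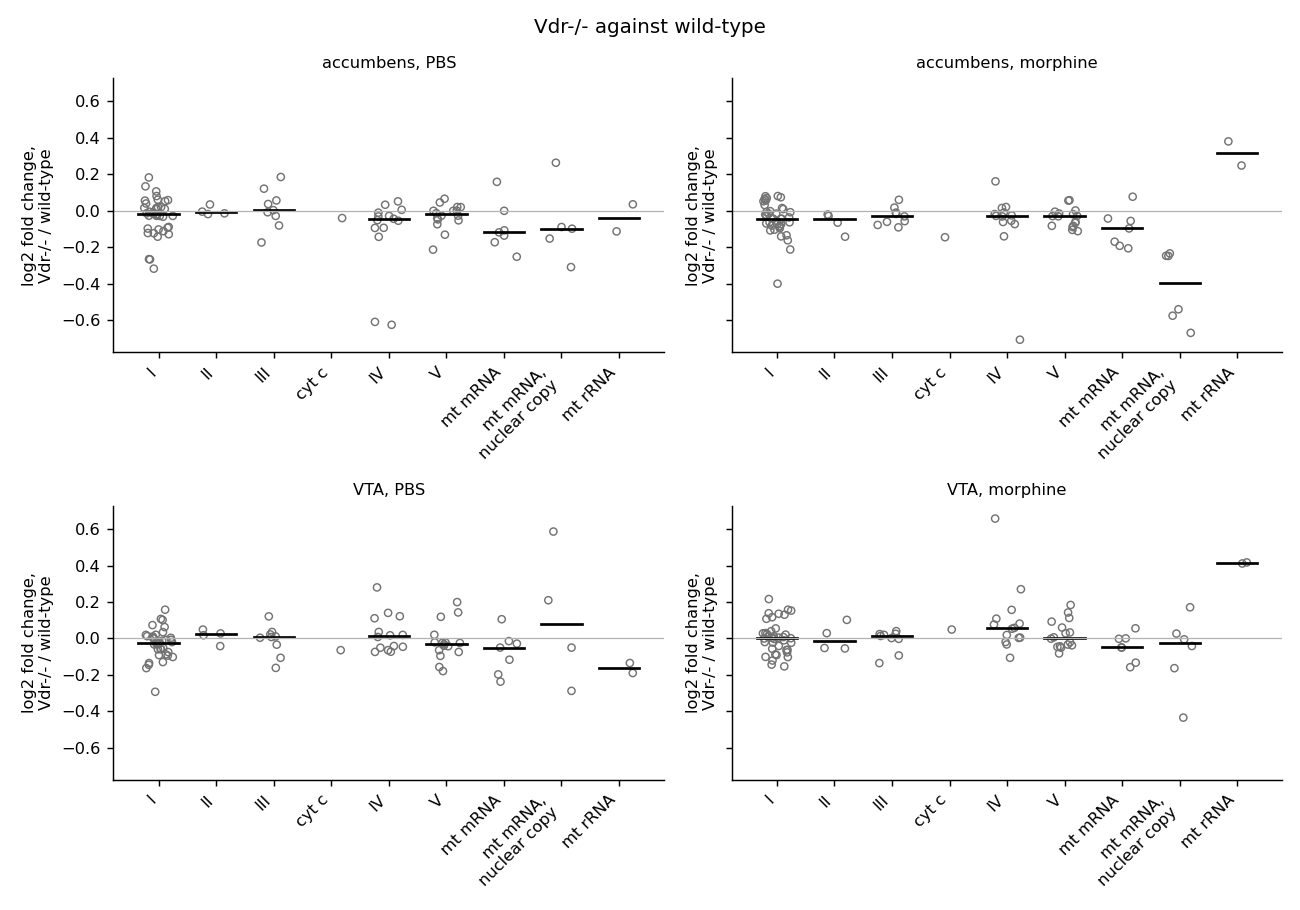
Log2 fold change of Vdr-/- against wild-type for each tested gene (1 point per gene), by respiratory complex for nuclear genes and by class for mitochondrial genes, for each region and injection; open points did not pass the test and bars mark medians. No point is filled in any panel.

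The difference of the morphine effect between genotypes was tested directly, and no member was called in either region. Over all genes 0% were called in the nucleus accumbens, and 0.0553% in VTA tissue, all of the latter higher. Of the members, 3 of 107 and 6 of 109 had an unadjusted p under 0.05, which is 2.80% and 5.50% against 5.80% and 12.2% of all genes. By edgeR no member was called, and by DESeq2 2 in the VTA, mt-Rnr1 and mt-Rnr2, and none in the nucleus accumbens. The difference for Ndufb2, positive where the rise was larger in Vdr-/- mice, was 0.40 ± 0.15 (SE; unadjusted p = 0.0172, adjusted p = 0.832, limma) in the nucleus accumbens and 0.41 ± 0.11 (unadjusted p = 0.00334, adjusted p = 0.189) in the VTA. For mt-Rnr1 it was 0.70 ± 0.21 (adjusted p = 0.230) in the VTA. For mt-Nd1 it was -0.06 ± 0.16 (nucleus accumbens) and -0.07 ± 0.17 (VTA), and for Cox6a1 -0.01 ± 0.11 and 0.01 ± 0.17 in the same order. The counts of genes called in wild-type and in Vdr-/- mice therefore differ without a called difference between the genotypes for any of these genes.

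Most genes tested differed between the regions, and most nuclear subunit genes were lower in the nucleus accumbens than in the VTA. Of 109 members 15 were called higher and 54 lower in the nucleus accumbens, where 34.5% of all genes were called higher and 37% lower, 71.5% in all (limma with the mouse number as a block, 12 numbers). Without the block 14 members were called higher and 58 lower, and 73.0% of all genes were called. Among 83 nuclear genes 7 were higher and 50 lower, with a median log2 fold change of -0.11 against -0.02 over all genes. Complex I had 2 higher and 24 lower of 38 by symbol (2 and 23 of 36 without Ndufa4 and Ndufa4l2), complex II 0 and 3 of 4, complex III 1 and 6 of 9, complex IV 2 and 7 of 15, and ATP synthase 2 and 9 of 16. Cycs was also lower, with a log2 fold change of -0.12. The median lay below 0 in every complex, from -0.17 for complex II to -0.08 for complex IV. Among 13 mitochondrial mRNAs 7 were higher and none lower.

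Sdha, the catalytic subunit of complex II, had 321 CPM at the lowest, 349 at the median and 384 at the highest in the nucleus accumbens and 424, 447 and 474 in the VTA. All accumbens libraries were below all VTA libraries, with a log2 fold change of -0.30 ± 0.03 (SE; adjusted p = 1.34e-07, limma). Ndufb8, an accessory subunit of complex I, ranged from 23.4 to 27.5 CPM with a median of 25.9 in the nucleus accumbens and from 34.8 to 41.3 CPM with a median of 38.1 in the VTA (log2 fold change -0.49 ± 0.04, adjusted p = 5.16e-08). The regions did not overlap for this gene either. Ndufb2 was lower in the nucleus accumbens for all 12 mouse numbers (-0.61 ± 0.04, adjusted p = 9.93e-09), although its morphine libraries there, 15.5 to 20.2 CPM, overlapped the PBS libraries of the VTA, 16.9 to 22.6 CPM. Among the nuclear subunits chosen for naming, Cox5a (-0.35), Uqcrc1 (-0.21), Uqcrfs1 (-0.20), Cyc1 (-0.18), Ndufs1 (-0.13), Atp5b (-0.13) and Cox6c (-0.10) were called lower. Ndufv1, Sdhb, Cox4i1 and Atp5a1 were not called, with log2 fold changes between -0.08 and -0.05.

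The largest nuclear differences lay in isoforms of complex IV that are scarce in brain. Cox6b2 ranged from 0.476 to 1.39 CPM in the nucleus accumbens and from 1.39 to 2.48 CPM in the VTA, lower in the nucleus accumbens for all 12 mouse numbers (log2 fold change -0.96 ± 0.16, adjusted p = 8.71e-05, limma). Cox7a1 was also lower for all 12 numbers (-0.84 ± 0.13, adjusted p = 4.61e-05), but its mean normalised count was 8.22 in accumbens and 14.5 in VTA libraries, so it reached the minimum only through the region where it is high. Cox6a2 went the other way, with 0.750 to 2.22 CPM in the nucleus accumbens and 0.274 to 1.19 CPM in the VTA, and was higher for 11 of 12 mouse numbers (1.19 ± 0.22, adjusted p = 0.000170). The ranges of Cox6a2 overlapped between the regions and those of Cox6b2 met at 1.39 CPM. The markers of striated muscle, where Cox6a2 and Cox7a1 are abundant, summed to 2.97 to 5.68 CPM in the nucleus accumbens and 2.01 to 5.32 CPM in the VTA, and 1 of 5 reached a mean value of 10. Their common counterparts moved by less: Cox6a1 was 0.13 higher, Cox6b1 -0.12 and Cox7a2l -0.18 on the log2 scale, and Cox7a2 and Cox8a were not called. Of the subunit c genes, Atp5g1 (-0.08) and Atp5g3 (-0.16) were called lower and Atp5g2 (0.05) was not called. Ndufa4, a subunit of complex IV in spite of its name, did not pass the test (0.01), whereas its paralog Ndufa4l2 was lower (-0.33).

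The nuclear genes that ran higher in the nucleus accumbens included Ndufs4, an accessory subunit of complex I (0.26 ± 0.04, adjusted p = 6.17e-05, limma), and Uqcr11, a small subunit of complex III (0.25 ± 0.05, adjusted p = 0.000182), each higher for all 12 mouse numbers. Among mitochondrial mRNAs without full copies, mt-Nd6 had 185 CPM at the lowest, 235 at the median and 269.9 at the highest in the nucleus accumbens and 152, 189 and 241 in the VTA. The ranges overlapped, but the accumbens library was higher for 12 of 12 mouse numbers (log2 fold change 0.35 ± 0.05, adjusted p = 1.20e-05). mt-Nd4 (0.25) and mt-Cytb (0.18 ± 0.06, adjusted p = 0.0182) were higher as well, the latter for 12 of 12 numbers, while mt-Co1 (0.04) and mt-Nd5 (0.00) were not called. The other 4 were mt-Co2, mt-Co3, mt-Atp6 and mt-Atp8 of the set with nuclear copies, at 0.35 to 0.44, and without the block none of these 4 passed the test (adjusted p = 0.106, 0.0832, 0.163 and 0.135, limma). Outside the subunit genes, Yjefn3, the row that the tables call Ndufa13, was higher by 1.24 ± 0.09 and the tRNA gene mt-Tw differed by -0.52 ± 0.07, each with the same sign for all 12 mouse numbers.

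**Figure D5:**
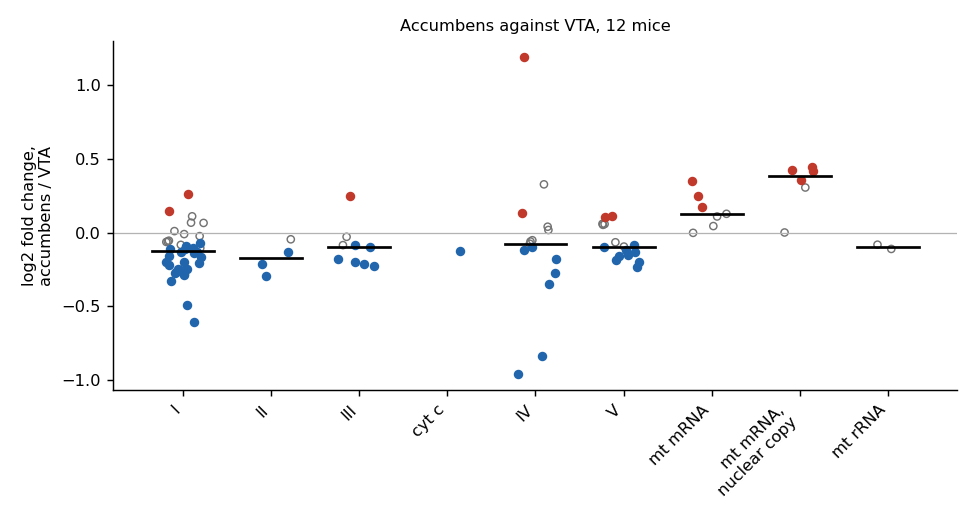
Log2 fold change of accumbens against VTA for each tested gene (1 point per gene, 12 libraries of each region, fitted with the mouse number as a block), by respiratory complex for nuclear genes and by class for mitochondrial genes; red and blue points passed the test as higher and lower in the accumbens, open points did not, and bars mark medians. The medians of the nuclear complexes lie below 0, and no mitochondrial mRNA is blue.

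The labels of the regions fitted their markers: all 9 of 9 medium spiny neuron markers were called higher in the nucleus accumbens and 7 of 8 dopamine neuron markers lower. Oligodendrocyte markers, 7 of 7 lower in the nucleus accumbens, differed between the regions as well, with 3911 to 6300 CPM there and 6361 to 13477 CPM in the VTA, and their part in the differences of subunit genes was not tested. With PBS mice alone, 9 members were called higher and 53 lower, and 64.5% of all genes were called.

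Other genes of mitochondrial metabolism were counted on lists, against 34.5% of all genes called higher and 37% lower between the regions, 9.94% and 9.13% with morphine in Vdr-/- accumbens, and 4.74% and 5.28% in Vdr-/- VTA. Between the regions, the citric acid cycle and pyruvate dehydrogenase genes, which supply NADH and succinate, had none higher and 13 lower of 17 in the nucleus accumbens (median log2 fold change -0.15). The assembly factors of the complexes had 14 higher and 15 lower of 46, the proteins of the mitochondrial ribosome 17 and 30 of 77, the genes for upkeep and transcription of mitochondrial DNA 7 and 7 of 18, the transcriptional regulators of respiratory genes 6 and 2 of 11, and the cytosolic ribosomal proteins 19 and 23 of 81. With morphine in Vdr-/- accumbens the counts higher and lower were 0 and 2 of 17 for the citric acid cycle, 1 and 4 of 45 for assembly factors, 2 and 2 of 77 for the mitochondrial ribosome, 0 and 1 of 18 for upkeep, 2 and 1 of 11 for regulators and 9 and 8 of 81 for cytosolic ribosomal proteins. In Vdr-/- VTA the counts were 0 and 2 of 17, 0 and 2 of 46, 1 and 2 of 77, 0 and 0 of 18, 1 and 2 of 11, and 4 and 6 of 81 in the same order. For assembly factors, the mitochondrial ribosome and upkeep the shares called with morphine in Vdr-/- mice lay below those of all genes in both directions and both regions. In wild-type accumbens no gene of these lists was called, and in wild-type VTA 1 regulator was lower and 1 cytosolic ribosomal protein gene moved each way. Between genotypes 1 cytosolic ribosomal protein gene was lower in the nucleus accumbens after morphine and no other gene of the lists was called.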

How the data were processed

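RNA was measured in 24 libraries, 12 of each region, made with a strand-specific kit and read as 101-base pairs. Per the study's methods the authors trimmed reads with Trimmomatic 0.36 and aligned them with STAR 2.4.2a at default parameters. Reads per gene were counted with the GeneCounts option of STAR, and CASAVA 1.8 is named in the submitters' processing notes. Beyond naming this option, the sources used here give neither the strand setting nor the handling of reads matching several places. The authors deposited 8 tables of 2 groups each, whose values (unit: signal) are read counts divided by DESeq2 size factors set within each table. In every library 100% of the values were whole multiples of 1 read (tolerance 0.01), so counts were recovered. Wild-type PBS mouse 3 and Vdr-/- PBS mouse 8 have no column in the VTA morphine tables, which leaves 3 mice against 2 there and 10 libraries for the VTA difference between genotypes. Values of CPM are recovered reads per 1000000 reads on genes and cover all 24 libraries.

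The main test was limma 3.58.1 (moderated, with a mean trend, two-sided) on log2(value + 1) for genes whose mean in the table reached 10. Benjamini-Hochberg adjustment covered every gene tested, calls were made at 0.05, and fold changes of low genes are understated on this scale. The region comparison used recovered reads scaled together by median-of-ratios, with the mouse number as a block. The labels share this number between regions, but no source used here states that both libraries came from 1 animal. Of 12 correlations of same-number deviations 3 were over 0.1 (range -0.0665 to 0.168), and 7 of 12 libraries correlated best with their own number. With 3 mice per group this check cannot settle whether the libraries were paired. The fit without the block is therefore given beside it. Alternatives were edgeR 4.0.16 and DESeq2 1.42.0 on recovered reads, TMM, size factors without members and ribosomal protein genes, a minimum mean of 50, no filter, a pseudocount of 5, removal of the exon length trend, and leaving out each library. As counts, DESeq2 called 492, 2045, 1342 and 1809 genes, and edgeR 159, 3076, 628 and 1764, for morphine in wild-type accumbens, Vdr-/- accumbens, wild-type VTA and Vdr-/- VTA, against 128, 3018, 591 and 1639 by limma. Replicate pairs were not duplicates (chi-square per degree of freedom 3.99 to 34.5 over 24 pairs). Fits were tested on simulated data. Named genes were the mitochondrial mRNAs and rRNAs, chosen nuclear subunits and paralogs of each complex, and for each comparison up to 5 members with the largest rise and 5 with the largest fall whose groups did not overlap (for the regions, the same sign for all 12 mouse numbers), or the 2 members with the smallest p where none was called. Other names were chosen after values were seen. The members, lists and tests were chosen with earlier results of these data known. Mitochondrial mRNAs were divided by nuclear copies (at least 90% of words, plus mt-Atp8 by its position) after the data were seen. Subunits were assigned to complexes by symbol. Gene positions and merged exon lengths were read from GENCODE M21 (GRCm38), where 30204 of 30270 identifiers were found. R 4.3.3 and Python 3.11.15 were used.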

Additional observations from a re-analysis of the deposited data

How the results depend on the processing

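Over the 11 comparisons, counts of called members stayed within 1.5 times of the reported count in 154 results under alternative settings and moved further in 20. These results include the comparisons of genotype and of the morphine effect between genotypes, where the reported count was 0. Among genes named for a call 1065 results kept their direction and call and 208 kept their direction without passing the threshold. No direction reversed. By DESeq2 1 member was called between genotypes in the nucleus accumbens after morphine (0 by limma), 13 with morphine in wild-type VTA (5 by limma: 6 higher and 7 lower by DESeq2) and 2 for the VTA difference between genotypes (0 by limma). With morphine in wild-type VTA 9 were called with the exon length trend removed and 15 with all 3 PBS mice from recovered reads. DESeq2 called 492 genes in wild-type accumbens and 1342 in wild-type VTA, against 128 and 591 by limma; between genotypes it called 63, 290, 51 and 95, against 11, 64, 30 and 10, and for the VTA difference 198 against 9; the cause was not tested. With all 3 PBS mice 2001 genes were called in wild-type VTA. Without the exon length trend 227 were called in wild-type accumbens and 2 for the VTA difference, and with no filter on low values 27 for the VTA difference. The medians of the mitochondrial mRNAs with copies had no value at a minimum mean of 50 for genotype after PBS, since none of them reached it. Leaving out 1 library at a time gave 0 to 5 members in wild-type accumbens, 12 to 22 in Vdr-/- accumbens, 0 to 34 in wild-type VTA, 0 to 36 in Vdr-/- VTA, 59 to 70 between regions, and 0 between genotypes and for the difference of the morphine effect; where this left 1 PBS library, its spread was assumed to equal that of the other group. The digit after the point is shared by wild-type and Vdr-/- morphine mice, and no label names it as a batch. Of 6 correlations of same-digit libraries 0 were over 0.1 (range -0.261 to -0.0256). With 3 mice per group this check cannot settle whether the digit marks a batch. With this replicate block 0 members were called in both comparisons of genotype after morphine, as without it (19 and 4 genes in all, against 30 and 10). Without the replicate block on mouse number, 72 members were called between regions, against 69, and mt-Co2, mt-Co3, mt-Atp6 and mt-Atp8 no longer passed. Depth limits the rarest genes: Vdr had at most 17 reads, and genes such as Cox8b were near 0.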
